A study of Oryza sativa with 8 samples.

Results

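The UDP-glycosyltransferase genes of rice (Oryza sativa) were followed in roots and leaves of plants that overexpress OsbZIP83, a bZIP transcription factor gene. Members were the rows of the class of genes whose description holds the words UDP-glycosyltransferase or UDP-glucuronosyl/UDP-glucosyltransferase, or whose symbols include one that starts with UGT. This rule took 171 of 46120 genes, 125 by the description, 7 by a rice symbol alone and 39 by the symbol of the best Arabidopsis match alone. It is broader than the enzyme family. Of the members, 147 carried the InterPro entry for the family (IPR002213) and 30 had no glycosyltransferase in their description, among them hypothetical proteins. Outside the rule, 47 further genes carried that entry.

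UDP-glycosyltransferases move a sugar from a UDP-sugar donor to a small acceptor molecule, which makes the acceptor more soluble and usually less active. In plants their acceptors include flavonoids, hormones such as cytokinins, auxin and salicylic acid, and foreign compounds, and the resulting glycosides are mostly stored in the vacuole. The family is large and many of its genes lie in tandem arrays. Donor sugars are supplied by a separate set of nucleotide-sugar enzymes, and beta-glucosidases can release the acceptor again.

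All plants were of the cultivar Tsukinohikari, were grown in hydroponics and had sufficient iron. Each tissue was sampled once from the non-transformant (NT) and once from each of 3 overexpression lines. These are labelled b83OX-13, b83OX-15 and b83OX-19; they appear as lines 13, 15 and 19, always in that order. The comparison asks which transcripts differ between the lines and NT in iron-sufficient roots and leaves. Libraries were made with Lasy-Seq, which reads the 3′ ends of polyadenylated transcripts. The sources used here do not give the promoter of the transgene or the number of plants behind a sample. The p-values therefore measure only the spread between these samples. For the lines against NT that spread comes only from the 3 lines within each tissue, since a lone NT sample for each tissue adds none. Levels are in reads per 1000000 (RPM) and are not divided by transcript length. They are tested between libraries and not between genes, and where genes are ranked or summed this is by reads only.

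Depth was about 17000000 to 35700000 gene reads per library, where 1 read was worth 0.0280 to 0.0590 RPM. OsbZIP83 stood at 32.0 RPM in NT roots and at 154 to 188 RPM in the root samples of the lines, and at 1.62 RPM in NT leaves and 75.3 to 100.5 RPM in the leaf samples of the lines. The 10 leaf marker genes summed to 82808 to 105812 RPM in leaves and to 0 to 190 RPM in roots. The sum of 190 RPM was that of NT roots and came from CAB1R alone, with the other 9 listed at 0. The 10 root marker genes, which include the silicon transporter genes LSI1 and LSI2, summed to 7136 to 9282 RPM in roots and to 2.61 to 19.6 RPM in leaves. The low values carry a deduction that appears to have been made before deposit, estimated at 0.134% to 0.146% of a gene's total over the 8 libraries. A value of 0 is therefore given as listed at 0. In RNA from whole tissue, fewer cells of a type and less RNA per cell cannot be told apart.

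Of the 171 members, 95 averaged 1 RPM or more across the libraries and were tested. Of the other 76, 14 were listed at 0 in every library and 62 were low. Together the members held 976 RPM in NT roots and 1222, 1149 and 1201 RPM in roots of the lines. In leaves they held 1503 RPM in NT, against 1242, 1199 and 1045 RPM in the lines. The sum was thus higher than NT in all 3 lines in roots and lower in all 3 in leaves. Single genes carried most of both shifts. Without Os09g0330000 the root sums were 960 RPM in NT, against 1049, 912 and 995 RPM in the lines, which lie on both sides of NT. Without Os06g0289900 the leaf sums were 1035 RPM in NT, against 936, 962 and 896 RPM in the lines. Both genes were picked out after their values were seen.

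**Figure D1:**
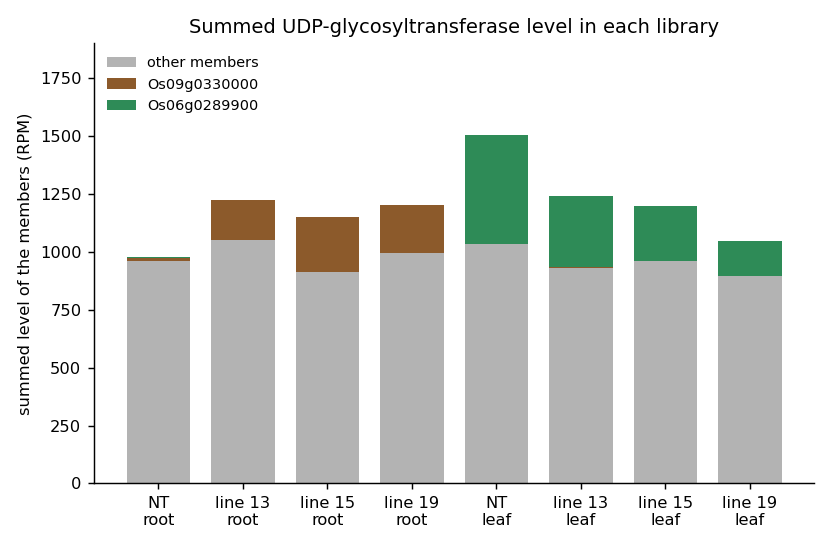
Summed level of all 171 members in each of the 8 libraries, in RPM, with Os09g0330000 in brown, Os06g0289900 in green and the other members in grey. Each bar is 1 library. Os09g0330000 is a thin band in NT roots and a wide one in roots of the 3 lines, and the green band of Os06g0289900 is widest in NT leaves and narrowest in leaves of line 19.

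In roots, 3 of the 95 tested members passed the threshold (limma, Benjamini-Hochberg adjusted p under 0.05 over all 21991 genes tested), 1 higher and 2 lower in the lines. That is 3.16% of the tested members, beside 1.16% of all tested genes (0.655% higher and 0.509% lower). Without adjustment 17 members had a p under 0.05, beside 2959 of the 21991 tested genes. The median log2 fold change was -0.02 over the members and 0.00 over all tested genes. In leaves, 9 members passed, 4 higher and 5 lower, which is 9.47% of them beside 3.79% of all tested genes (2.66% higher and 1.13% lower). There 32 members had an unadjusted p under 0.05, beside 4615 of the 21991 tested genes. The median in leaves was -0.02 over the members and 0.09 over all tested genes. The calls in leaves depended on the spread estimated from all 8 libraries, and a fit of the 4 leaf libraries alone called 0 members. With the root library of line 13, 15 or 19 left out, 4, 3 and 3 members passed in leaves, and 6 passed without the leaf library of line 19. In roots 2 passed when the root library of any 1 line was left out, in each case Os09g0330000 and Os10g0178500.

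Os09g0330000, annotated only as a member of the family, had the largest increase in roots. It stood at 15.7 RPM in NT roots and at 173, 237 and 205 RPM in roots of the lines, a mean of 205 ± 31.9 RPM (SD, n = 3). All 3 lines lay far above NT. The log2 fold change was 3.62 ± 0.39 (SE, limma adjusted p = 0.00533), and it passed under all 16 alternatives tried. In leaves the gene was listed at 0 in NT, against 5.27, 3.13 and 1.81 RPM in the lines, and no fold change is given. The estimated deduction for this gene in NT leaves was 1.03 RPM, so the NT value could lie up to that level. The leaf difference passed in the fit (limma adjusted p = 0.0350), but not with the deducted reads added back (adjusted p = 0.0660). It also missed the threshold without the root library of line 13, 15 or 19 (adjusted p 0.0761, 0.0866 and 0.0953) and without the leaf library of line 15 (adjusted p = 0.0561). Of its 20 nearest tested genes by locus order, 3 were lower and 0 higher in roots of the lines, and 12 had an unadjusted p under 0.05, beside 2959 of the 21991 tested genes. In leaves 1 of the 20 was higher and 2 were lower, and 9 had an unadjusted p under 0.05, beside 4615 of all tested genes. Among those lower in roots was Os09g0325300, a hypothetical protein gene, with 9.16 RPM in NT roots and 0.308, 0.416 and 0.586 RPM in the lines.

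Os10g0178500, UGT99B3 in one symbol column of the annotation and OsUGT98B3 in another, was the member with the largest fall in both tissues on the log2(RPM + 1) scale. In leaves it stood at 27.7 RPM in NT, against 1.24, 1.03 and 1.13 RPM in the lines, which averaged 1.13 ± 0.11 RPM (SD, n = 3). In roots it was at 3.91 RPM in NT, at 0.0601 RPM in line 13 and listed at 0 in lines 15 and 19. Every line lay far below NT in both tissues, and the 3 lines were close to each other. The log2 fold change was -3.75 ± 0.15 in leaves (SE, limma adjusted p = 3.6e-05) and -2.27 ± 0.15 in roots (adjusted p = 0.000436). The leaf call held with each library other than NT leaves left out in turn. It missed the threshold only in a fit of the 4 leaf libraries alone (adjusted p = 0.0541). The root call passed under all 15 alternatives that could test it. Of its 20 nearest tested genes, 0 passed in either tissue (limma), and 1 in roots and 2 in leaves had an unadjusted p under 0.05. The difference between the tissues, -1.49 (adjusted p = 0.0475), is on a scale with 1 RPM added and turned to 0.60 (adjusted p = 0.627) with 0.1 RPM added. Left-out libraries also ended it, with adjusted p of 0.0812, 0.145 and 0.129 without the root library of line 13, 15 or 19 and of 0.0560, 0.0613 and 0.0846 without the leaf library of the same lines.

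A second member was lower in roots. Os04g0324100 stood at 21.2 RPM in NT roots and at 8.85, 8.90 and 10.7 RPM in the lines, with a log2 fold change of -1.09 ± 0.19 (limma adjusted p = 0.0456). Its leaf values were 5.02 RPM in NT, against 4.68, 6.02 and 4.69 RPM in the lines, so NT lay within the range of the lines there. The root call missed the threshold under 10 of 16 alternatives. These included each line left out of the roots (adjusted p 0.0996, 0.167 and 0.0896) and line 13 or 19 left out of the leaves (adjusted p 0.0766 and 0.0848). Of the 20 nearest tested genes, 0 passed in roots (limma) and 3 had an unadjusted p under 0.05, beside 2959 of the 21991 tested genes.

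**Figure D2:**
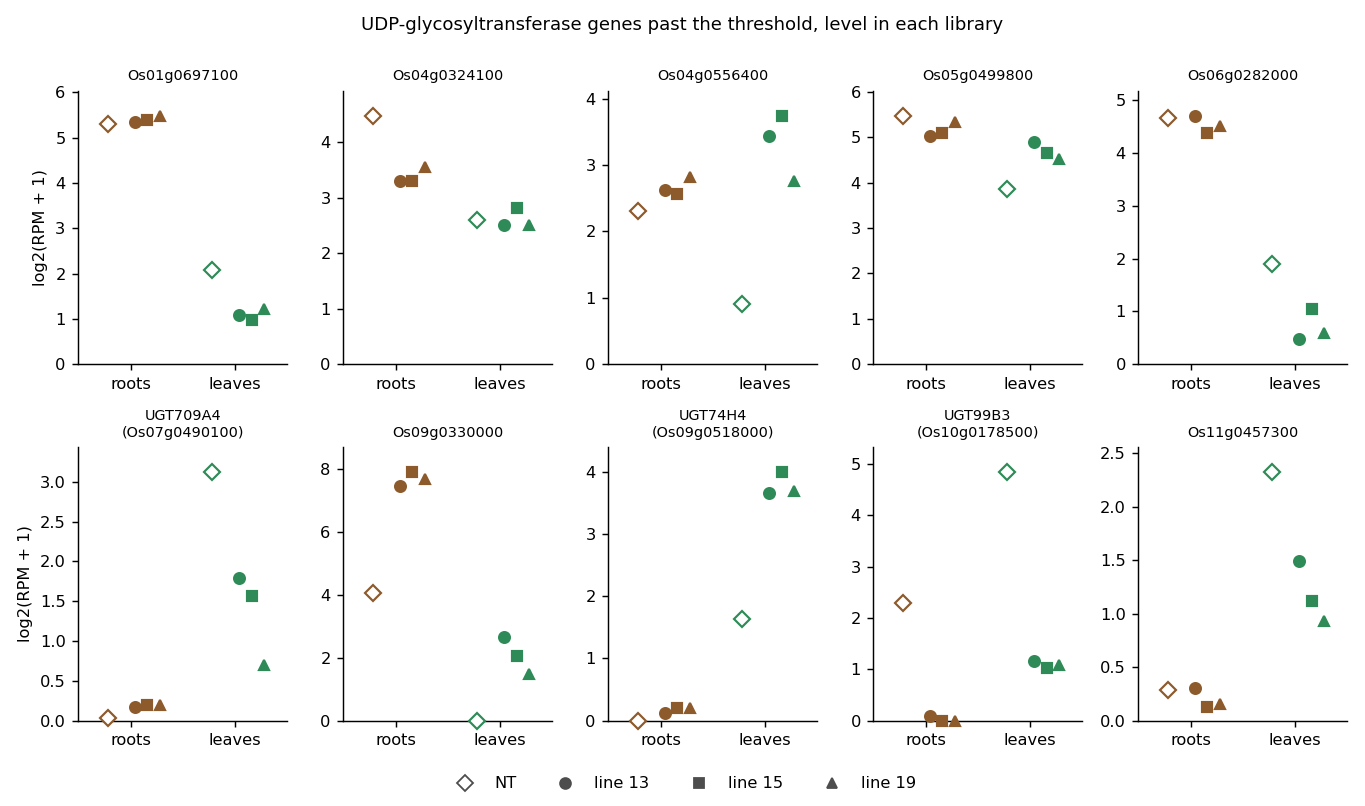
Level of each of the 10 members that passed the threshold for the lines against NT in roots or leaves, as log2(RPM + 1), with 1 point per library and no averaging. Open diamonds are NT and filled symbols the 3 lines, brown for roots and green for leaves, and each panel has its own vertical scale starting at 0. Os09g0330000 rises from an NT point of 15.7 RPM in roots, and UGT99B3 lies near the base in all 6 samples of the lines.

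Of the members that rose in leaves, UGT74H4 (Os09g0518000) had the smallest adjusted p. It is a gene of the UGT74 group, next to a salicylic acid glucosyltransferase gene. It stood at 2.11 RPM in NT leaves, against 11.6, 14.9 and 12.0 RPM in the lines, which averaged 12.8 ± 1.83 RPM (SD, n = 3). In roots it was listed at 0 in NT, against 0.0886, 0.151 and 0.156 RPM in the lines. The 3 lines lay well above NT in leaves, while the gene was close to 0 in every root library. The leaf log2 fold change was 2.14 ± 0.18 (limma adjusted p = 0.00188), and the call held with each library other than NT leaves left out. Of the 20 nearest tested genes, 0 passed in leaves and 5 had an unadjusted p under 0.05, beside 4615 of the 21991 tested genes. The fitted difference of the effect, leaves minus roots, was 1.96 (limma adjusted p = 0.0394), with root values of a few reads, near the estimated deduction of 0.0541 to 0.101 RPM. It missed the threshold under 8 of 14 alternatives. These were 0.1 RPM added in place of 1 RPM (1.34, adjusted p = 0.235), a filter at 5 RPM (adjusted p = 0.0562), TMM rescaling (0.0502), quantile normalization (0.0559), each line left out of the roots (0.0811, 0.143 and 0.129) and line 19 left out of the leaves (0.0801).

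Os04g0556400, described as similar to UGT93B9, stood at 0.869 RPM in NT leaves, against 9.79, 12.4 and 5.80 RPM in the lines. The lowest line was still well above NT, and the lines differed among themselves by a ratio of 2.13. Its log2 fold change in leaves was 2.41 ± 0.34 (limma adjusted p = 0.0131), and the call held with each library other than NT leaves left out. Root values were 3.94 RPM in NT, against 5.16, 4.89 and 6.09 RPM in the lines, which did not pass (adjusted p = 0.701). Of the 20 tested genes nearest to Os04g0556400, 0 were higher and 1 was lower in leaves (limma). An unadjusted p under 0.05 was found for 6 of them, beside 4615 of the 21991 tested genes. The lower one, Os04g0556000, described as a copper-loading P-type ATPase, fell in leaves from 2.08 RPM to 0.900, 0.854 and 0.605 RPM.

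Os05g0499800 also rose in leaves, from 13.5 RPM in NT to 28.7, 24.1 and 22.1 RPM, with a log2 fold change of 0.83 ± 0.17 (limma adjusted p = 0.0481). In roots it stood at 43.5 RPM in NT, against 31.9, 33.3 and 39.3 RPM in the lines, all below NT, without passing (adjusted p = 0.482). This leaf call missed the threshold under 11 of 16 alternatives. Each left-out line ended it, with adjusted p of 0.0845, 0.112 and 0.0828 for the root libraries of lines 13, 15 and 19 and of 0.0513, 0.0676 and 0.0555 for their leaf libraries. Of the 20 nearest tested genes, 0 passed in leaves (limma) and 5 had an unadjusted p under 0.05, beside 4615 of the 21991 tested genes.

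Besides UGT99B3, 4 members fell in leaves. UGT709A4 (Os07g0490100), whose product acts on flavonoids in enzyme assays, stood at 7.71 RPM in NT leaves, against 2.45, 1.95 and 0.616 RPM in the lines (log2 fold change -1.78 ± 0.37, limma adjusted p = 0.0488). Its root values were 0.0231 RPM in NT, against 0.121, 0.141 and 0.147 RPM in the lines, a few reads in each line. The NT root value was below 1 read (0.0590 RPM) and below the estimated deduction of 0.0289 RPM. Os11g0457300, annotated only by family, was at 4.01 RPM in NT leaves, against 1.81, 1.18 and 0.908 RPM in the lines (-1.14 ± 0.23, adjusted p = 0.0414). In both genes each line lay below NT, with line 19 lowest. The other 2 were read mostly in roots. Os01g0697100 stood at 38.7 RPM in NT roots and at 39.5, 41.0 and 43.7 RPM in roots of the lines, and at 3.23 RPM in NT leaves and 1.12, 0.951 and 1.32 RPM in leaves of the lines (leaf log2 fold change -0.99 ± 0.15, limma adjusted p = 0.0158). Os06g0282000 stood at 24.4 RPM in NT roots and at 25.0, 19.7 and 21.8 RPM in roots of the lines, and at 2.74 RPM in NT leaves and 0.397, 1.05 and 0.511 RPM in leaves of the lines (-1.20 ± 0.24, adjusted p = 0.0428). In these 2 genes the root levels of the lines were close to that of NT, while every leaf sample of the lines lay below NT leaves. The root markers summed to 2.61 RPM in NT leaves and to 19.6, 8.57 and 2.88 RPM in leaves of the lines. Of these sums, NAAT1 gave 0.472, 13.2, 1.62 and 0.467 RPM and NAAT4 gave 2.14, 2.03, 2.87 and 2.06 RPM, in the same order. RCc3 and LSI2 were listed at 0 in every leaf library, and LSI1 was listed at 0 for NT and line 19. Any part of root RNA in the leaf values of these 2 genes was not tested. The difference of the effect between the tissues did not pass for any of the 4 (limma adjusted p 0.0905 to 0.225). Of the 20 nearest tested genes in leaves, 2 were higher and 0 lower around UGT709A4, and 1 was higher and 0 lower around Os06g0282000. Around Os11g0457300 0 were higher and 1 was lower, and around Os01g0697100 0 passed. Of all tested genes, 2.66% were higher and 1.13% lower in leaves. An unadjusted p under 0.05 (limma) was found for 9 of the 20 around UGT709A4 and 7 around Os06g0282000. It was found for 3 around Os11g0457300 and 3 around Os01g0697100, beside 4615 of the 21991 tested genes. Near UGT709A4, Os07g0492100, described as a DNA helicase, rose from 0.497 RPM in NT leaves to 4.76, 5.09 and 6.33 RPM in the lines.

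These 4 leaf calls missed the threshold under several alternatives, 8 of 15 for UGT709A4, 8 of 15 for Os11g0457300, 9 of 16 for Os06g0282000 and 4 of 16 for Os01g0697100. With 0.1 RPM added the adjusted p was 0.105, 0.113 and 0.0552 for the first 3. With 5 RPM added it was 0.112 for Os06g0282000 and 0.0667 for Os01g0697100, and after TMM rescaling it was 0.0520 for UGT709A4. Left-out libraries ended calls too. Without the root library of line 13, the adjusted p was 0.0988 for UGT709A4, 0.0758 for Os11g0457300 and 0.0779 for Os06g0282000. Without that of line 15 it was 0.115, 0.0938 and 0.0962 for the same genes and 0.0599 for Os01g0697100, and without that of line 19 it was 0.112, 0.0929, 0.105 and 0.0514. Without the leaf library of line 13 it was 0.0527 for Os06g0282000, without that of line 15 it was 0.0593 for UGT709A4 and 0.0740 for Os11g0457300, and without that of line 19 it was 0.0917 for Os06g0282000 and 0.0746 for Os11g0457300. Leaving out a root library does not alter a leaf fold change and acts through the pooled spread. The calls that held with each line library left out were Os09g0330000 in roots, Os10g0178500 (UGT99B3) in both tissues, and UGT74H4 and Os04g0556400 in leaves. Leaving out NT of the other tissue could hardly change a call, since that lone sample adds nothing to the spread. NT of the same tissue cannot be left out, and each of these fold changes rests on that lone library.

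**Figure D3:**
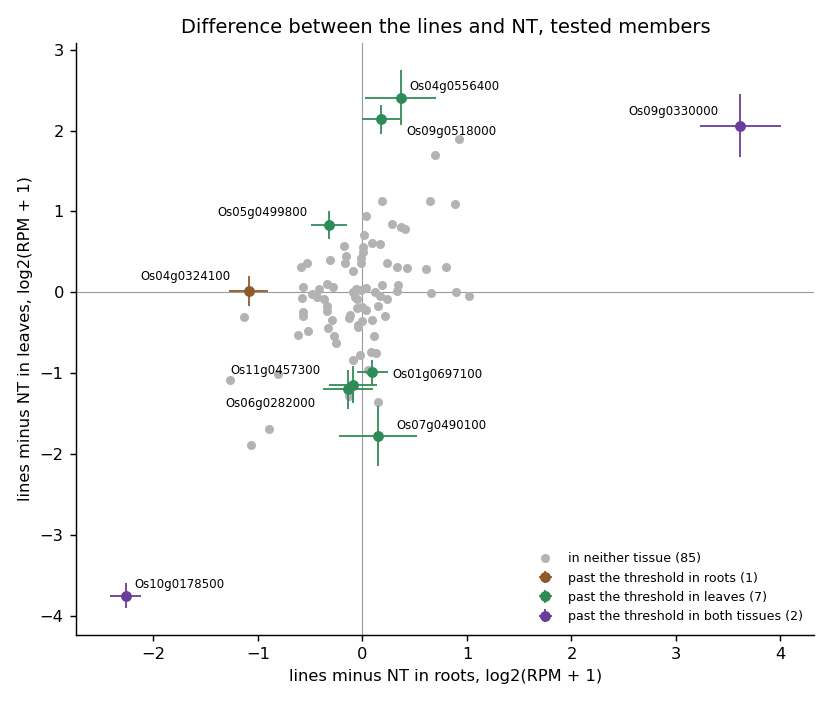
Difference between the mean of the 3 lines and NT in roots (horizontal) and in leaves (vertical) for the 95 tested members, on the log2(RPM + 1) scale, with 1 point per gene. Coloured points passed the threshold and carry bars of 1 SE. Os09g0330000 lies at the upper right with 3.62 in roots, UGT99B3 (Os10g0178500) at the lower left with -3.75 in leaves, and most members lie near 0.

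A rule of size without a test shared 1 of the 3 calls in roots and 3 of the 9 in leaves. It asked that every line differ from NT by 2-fold or more to the same side, among genes averaging 5 RPM or more in the tissue. In roots 1 of 44 members met it (1.12% of all genes, 0.757% higher and 0.359% lower), namely Os09g0330000, which was higher. In leaves 5 of 41 met it (3.04% of all genes, 2.31% higher and 0.733% lower). UGT703A2 (Os01g0638000), Os04g0556400 and UGT74H4 were higher, and Os07g0510400 and UGT99B3 were lower. UGT703A2 stood at 2.54 RPM in NT leaves, against 11.9, 5.42 and 17.1 RPM in the lines, and at 52.3 RPM in NT roots and 105, 65.2 and 89.9 RPM in roots of the lines. All 6 samples of the lines were above NT of their tissue, but the lines were wide apart and neither difference passed (limma adjusted p = 0.119 in leaves and 0.610 in roots). UGT703A2 is on the list of members described by symbol, but no acceptor class was assigned to it here.

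Among members whose acceptor class is given by the annotation or known from enzyme assays, the 3 flavonoid genes with the most reads were read mostly in leaves. Os06g0289900, annotated as a C-pentosyl flavone pentosyltransferase, stood at 468 RPM in NT leaves, against 306, 236 and 149 RPM in the lines. All 3 lines were below NT, with line 19 lowest, and the difference did not pass (log2 fold change -1.08 ± 0.33, limma adjusted p = 0.122). The 10 leaf markers summed to 105812 RPM in NT leaves and to 100236, 98511 and 82808 RPM in leaves of the lines, the same order, and their part in this result was not tested. In roots Os06g0289900 was at 1.52 RPM in NT, against 0.0467, 0.0898 and 0.0214 RPM in the lines. The estimated deduction for this gene was 2.69 RPM in NT roots, more than the value itself, and NT roots were also the root library with 190 RPM of the leaf gene CAB1R, whose part in this value was not tested. Os02g0589400, annotated as a flavone or flavanone C-hexosyltransferase, stood at 154 RPM in NT leaves, against 136, 103 and 86.0 RPM in the lines. Its root values were 23.3 RPM in NT, against 15.4, 15.6 and 13.6 RPM in the lines. Again every line was below NT, in both tissues, and neither difference passed (adjusted p = 0.236 in leaves and 0.297 in roots). UGT707A3 (Os07g0503500), which acts on flavonoids in enzyme assays, was at 10.5 RPM in NT leaves, against 7.28, 4.78 and 4.51 RPM in the lines (adjusted p of 0.157), and under 1 RPM in every root library.

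The remaining flavonoid members were low. Os07g0503900, annotated as a flavone 5-O-glucosyltransferase, ranged from 0.984 to 2.92 RPM over the 8 libraries. UGT706D1 (Os01g0736300) ranged from 0.944 to 1.82 RPM. UGT706C1 (Os01g0736100) and Os06g0289200, annotated as a flavone C-pentosyltransferase, were too low to be tested. Os06g0289200 stood at 0.109 RPM in NT roots and at 1.93, 0.723 and 1.36 RPM in roots of the lines, all above NT, but these are small numbers of reads.

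Of the cytokinin genes, CZOGT2 (Os04g0556600), a cis-zeatin O-glucosyltransferase gene, stood at 18.1 RPM in NT leaves, against 13.2, 10.5 and 10.4 RPM in the lines, and at 0.281 to 0.697 RPM in roots. All lines were below NT in leaves without passing (limma adjusted p = 0.155). CZOGT3 (Os04g0565400) was at 10.5 RPM in NT leaves, against 7.66, 13.4 and 7.40 RPM in the lines, on both sides of NT, and was listed at 0 in every root library. OscZOG1 (Os04g0271700) ranged from 0.297 to 1.18 RPM and was not tested. UGT74H3 (Os09g0518200), the salicylic acid glucosyltransferase gene, stood at 4.34 RPM in NT roots and at 8.72, 7.39 and 8.76 RPM in the lines. The 3 lines lay close together above NT, with a log2 fold change of 0.80 ± 0.23 that did not pass (adjusted p = 0.199). In leaves it was at 3.26 RPM in NT, against 3.31, 5.46 and 4.33 RPM in the lines. OsIAGLU (Os03g0693600), the indole-3-acetate glucosyltransferase gene, was listed at 0 in all 8 libraries.

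**Figure D4:**
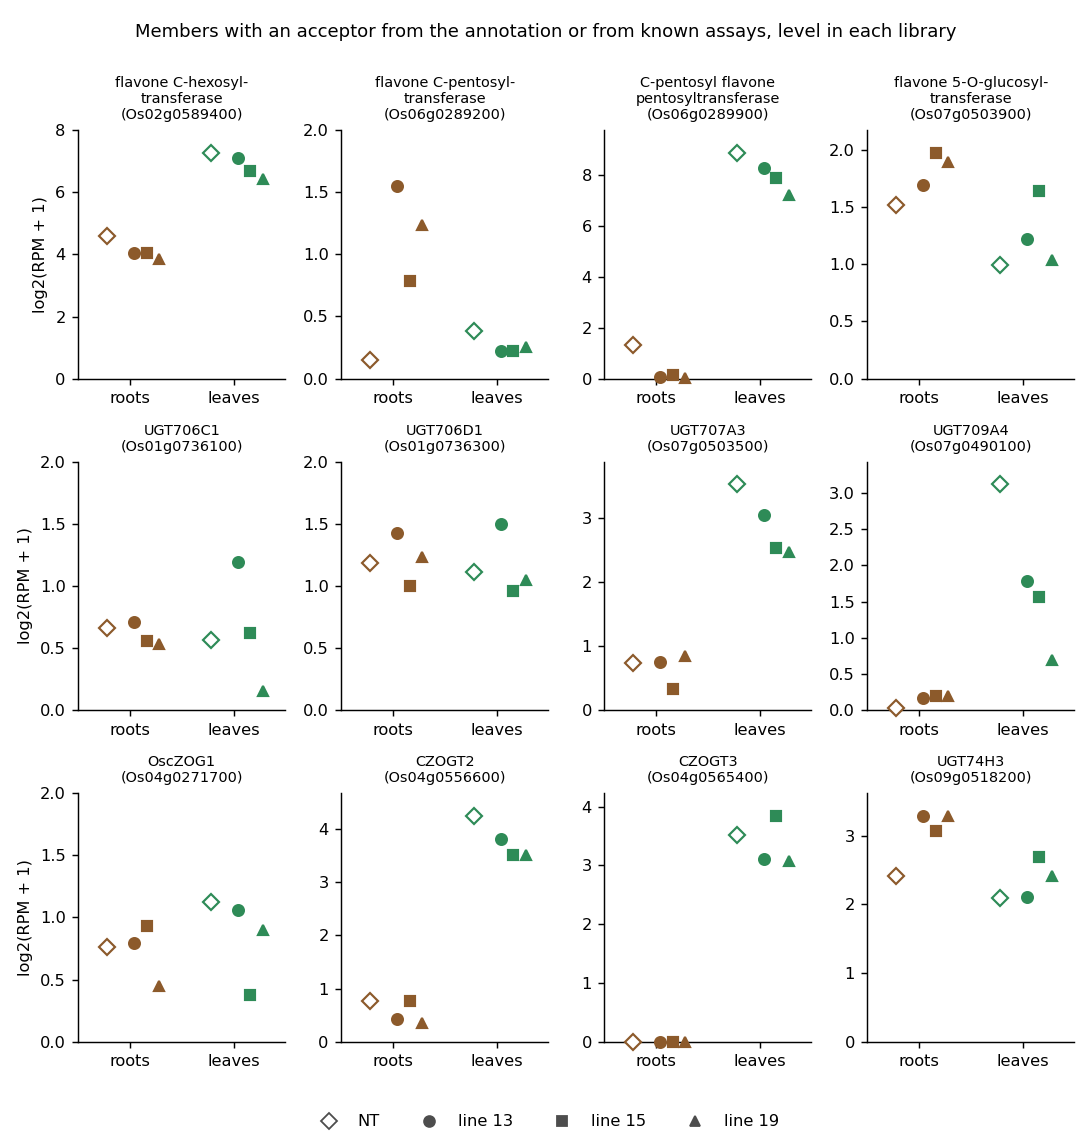
Level of the 12 members above 0 whose acceptor class is given by the annotation or known from enzyme assays, as log2(RPM + 1), with 1 point per library, open diamonds for NT and filled symbols for the 3 lines, brown for roots and green for leaves. Each panel has its own vertical scale starting at 0. The first 8 panels are flavonoid genes, the next 3 cytokinin genes and the last the salicylic acid gene, and the NT point in leaves is the highest of the 4 leaf points for Os02g0589400, Os06g0289200, Os06g0289900, UGT707A3, UGT709A4, OscZOG1 and CZOGT2.

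Many more members passed between the tissues than between the lines and NT. In a comparison of the 4 root with the 4 leaf libraries, 79 of the 95 tested members passed (83.2%, beside 82.7% of all tested genes). Of these, 44 were higher in roots (58.5% of all genes) and 35 higher in leaves (24.2%). The direction of the majority depends on the scaling. All tested genes had a median of 0.59 (log2, roots minus leaves) as deposited, 0.04 after TMM rescaling and 0.10 after quantile normalization. The members had medians of 0.11, -0.29 and -0.40, and splits of 44 to 35, 35 to 44 and 33 to 45. The root and leaf values of 72 members did not overlap, as for 17210 of the 21991 tested genes. The mean was at least 10 times higher in roots for 20 members and at least 10 times higher in leaves for another 20. These 10-fold differences were not counted over all genes, so whether their share is particular to the family was not tested.

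The largest difference towards leaves was that of Os06g0289900, with a log2 difference of -7.67 ± 0.38 (SE, limma adjusted p = 4.98e-08). Os02g0206100 followed, at 53.8 RPM in NT leaves and 63.4, 74.6 and 70.2 RPM in leaves of the lines, and at 0.0688 to 0.455 RPM in roots (-5.68 ± 0.14). Os01g0734600 was at 33.1 RPM in NT leaves and 47.1, 48.3 and 46.4 RPM in leaves of the lines, and was listed at 0 in 3 of the 4 root libraries (-5.46 ± 0.13). The leaf values of the lines were all above NT in both genes, within 1.43 times on average, and did not pass (adjusted p = 0.362 and 0.0891). UGT75K1 (Os01g0179600) was at 65.8 RPM in NT leaves and 20.4, 43.0 and 20.9 RPM in the lines, and at most 0.314 RPM in roots (-4.94 ± 0.34). Os03g0757200 was at 19.1 RPM in NT leaves and 16.0, 18.2 and 19.9 RPM in the lines, and at most 0.250 RPM in roots (-4.06 ± 0.11).

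Towards roots, the largest difference was that of Os09g0330000 (5.22 ± 0.87, limma adjusted p = 0.000317), a mean that includes its rise in the lines. Os03g0702000 was at 17.5 RPM in NT roots and 25.9, 19.3 and 22.2 RPM in the lines, and at most 0.134 RPM in leaves (4.40 ± 0.13). Os06g0220500 was at 15.3 RPM in NT roots and 20.7, 26.2 and 27.5 RPM in the lines, and at 0.205 to 0.532 RPM in leaves (4.12 ± 0.18). The lines lay above NT in roots for both genes and did not pass (adjusted p = 0.513 and 0.252). Os01g0697100, described above, had a difference of 4.05 ± 0.22. UGT98B1 (Os01g0176000) was at 29.5 RPM in NT roots and 31.6, 32.0 and 30.8 RPM in the lines, and at 0.868 to 2.98 RPM in leaves (3.64 ± 0.22). Its 4 root values lay close together.

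**Figure D5:**
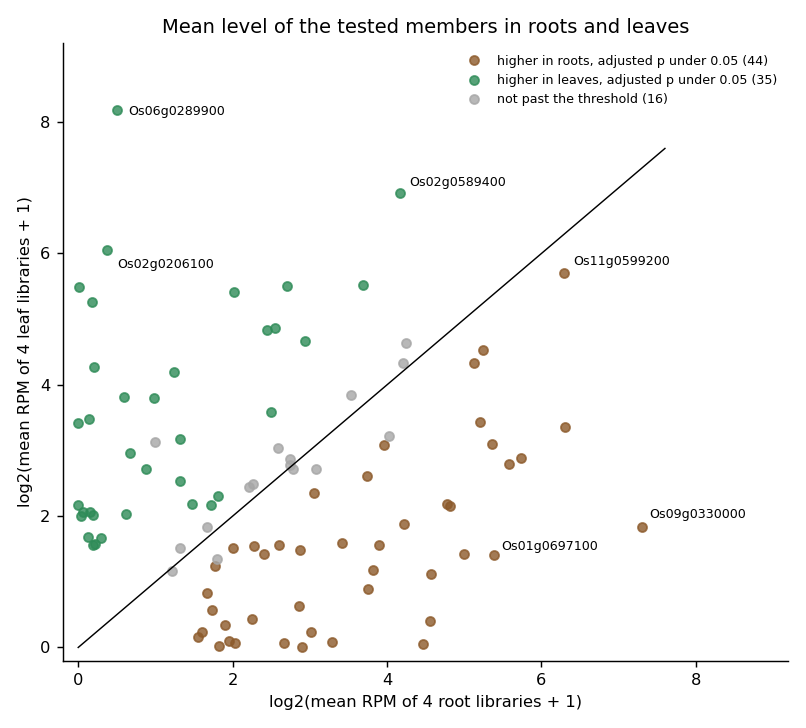
Mean level of each of the 95 tested members over the 4 root libraries (horizontal) and the 4 leaf libraries (vertical), as log2(mean RPM + 1), with 1 point per gene and the line of equal levels. Brown and green points passed the threshold towards roots (44) and leaves (35), and 16 grey points did not. Many members lie along 1 axis, being read almost wholly in 1 tissue, and Os11g0599200 is high in both.

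For some members NT lay inside or near the range of the lines. Os11g0599200 stood at 79.9 RPM in NT roots and at 71.4, 80.6 and 78.1 RPM in the lines, and at 49.9 RPM in NT leaves and 59.7, 45.3 and 50.2 RPM in the lines, with NT inside the range of the lines in both tissues. Its difference between tissues, 0.59 towards roots (limma adjusted p = 0.000225), turned to -0.02 after TMM rescaling. Os07g0503300 was at 51.9 RPM in NT roots and 59.5, 47.0 and 51.1 RPM in the lines, with NT inside their range, but at 3.77 RPM in NT leaves and 4.46, 11.2 and 6.15 RPM in the lines, all above NT. SQD2.1 (Os07g0100300), whose product is known for the last step of sulfolipid synthesis, was at 48.5 RPM in NT leaves and 41.8, 40.8 and 46.2 RPM in the lines. The lines were slightly below NT there, without passing (limma adjusted p = 0.496).

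Members near each other on a chromosome were not always read in the same tissue. With at most 5 other genes between neighbours, 115 members lay in 35 runs of 2 or more and 56 lay alone, and the largest run, on chromosome 1 from Os01g0734600 to Os01g0736300, held 9. Of the 16 runs with at least 2 members past the threshold between the tissues, 8 held members of both directions, 5 were all higher in roots and 3 all higher in leaves. These counts use the scaling as deposited, with 44 members higher in roots and 35 higher in leaves. Runs of other genes were not counted, so whether this mix is particular to runs of members was not tested. In the run on chromosome 3, Os03g0757000 stood at 40.2 RPM in NT roots and 49.3, 44.2 and 53.9 RPM in roots of the lines, with 1.54 to 16.0 RPM in leaves, while Os03g0757200 was the leaf gene given above. The UGT74 run on chromosome 9 joined UGT74H4, near 0 in roots, with UGT74H3, which was higher in roots as deposited (log2 difference 0.69 ± 0.22, limma adjusted p = 0.0151) but not after TMM rescaling (0.16, adjusted p = 0.494). In the chromosome 4 run, Os04g0556400 rose in leaves of the lines, whereas CZOGT2 was below NT in all 3 without passing. Whether reads were shared between near-identical copies was not tested. Identical values in another gene were found for 2 members, neither of them tested.

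The lines were not alike for every member. The ratio of the highest to the lowest line had a median of 1.22 over the members averaging 5 RPM or more in roots and of 1.32 in leaves, beside 1.15 and 1.22 over all genes. The neighbouring genes Os07g0510400 and Os07g0510500 were wide in both tissues. Os07g0510400, singled out after its values were seen, stood at 23.4 RPM in NT roots and at 24.1, 6.71 and 7.15 RPM in roots of the lines, and at 18.9 RPM in NT leaves and 8.24, 3.85 and 2.41 RPM in leaves of the lines. Os07g0510500 stood at 17.8 RPM in NT roots and at 16.1, 6.88 and 6.78 RPM in the lines, and at 89.1 RPM in NT leaves and 50.1, 26.7 and 14.5 RPM in the lines. In roots line 13 was near NT and lines 15 and 19 were lower for both genes, and in leaves every line was below NT, with line 13 the highest and line 19 the lowest of the lines. Neither gene passed in either tissue (limma adjusted p 0.198 to 0.606). Os03g0757000 was at 2.34 RPM in NT leaves, against 1.54, 16.0 and 3.98 RPM in the lines, with line 15 apart from the others. UGT710C2 (Os07g0241500), also singled out after its values were seen, was at 7.99 RPM in NT leaves, against 5.11, 31.6 and 25.0 RPM in the lines, where line 13 was below NT and the other lines above.

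The genes that supply donor sugars and those that make or release acceptors were counted from lists of descriptions. Over all 21991 tested genes, 2959 in roots and 4615 in leaves had an unadjusted p under 0.05. Of 18 tested genes of UDP-sugar supply, 0 passed in roots (limma, with 4 at an unadjusted p under 0.05) and 3 rose in leaves (5 unadjusted), which is 16.7% beside 2.66% of all tested genes higher there. These were OsUXS5, a UDP-glucuronic acid decarboxylase gene of UDP-xylose synthesis, from 39.4 RPM in NT to 83.9, 93.3 and 69.1 RPM, and a pair of UDP-glucose 6-dehydrogenase genes of UDP-glucuronic acid synthesis. Os03g0757900 rose from 47.6 to 86.9, 87.5 and 80.6 RPM and Os12g0443500 from 14.1 to 24.3, 21.1 and 22.0 RPM. The median log2 fold change of the list in leaves was 0.22, beside 0.09 over all genes. Only 1 of the list passed after TMM rescaling, 1 or 0 when a root library of a line was left out (0 without line 15), and 2 without the leaf library of line 19.

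Of 30 tested genes described as beta-glucosidases, a match that also takes in glucan endo-1,3-beta-glucosidases, 0 passed in roots (3 at an unadjusted p under 0.05) and 1 in leaves (6 unadjusted), which is 3.33% beside 3.79% of all tested genes. BGLU13 rose from 8.13 RPM in NT leaves to 19.9, 31.6 and 25.3 RPM in the lines (limma adjusted p = 0.0185), and 0 passed without the root library of any 1 line or the leaf library of line 19. The list's median in leaves was 0.00. Of 30 tested phenylpropanoid and flavonoid genes, 2 fell in roots, 1 rose in leaves and 1 fell there, which is 6.67% in each tissue beside 1.16% of all tested genes in roots and 3.79% in leaves. Without adjustment 8 had a p under 0.05 in roots and 17 in leaves, beside 2959 and 4615 of the 21991 tested genes. The list had medians of -0.19 in roots and -0.03 in leaves. Both root genes are described as similar to leucoanthocyanidin dioxygenase, an enzyme of anthocyanidin synthesis. Their locus numbers are close together on chromosome 9, so they may not be 2 separate changes. Their other neighbours were not counted. Os09g0353700 stood at 18.1 RPM in NT roots and at 3.61, 4.52 and 3.55 RPM in the lines, and Os09g0353400 at 8.57 RPM and at 2.74, 3.08 and 3.28 RPM. The chalcone synthase gene CHS (Os11g0530600), whose product starts flavonoid synthesis, stood at 471 RPM in NT leaves, against 180, 122 and 74.4 RPM in the lines (log2 fold change -1.99 ± 0.40, limma adjusted p = 0.0434). As for Os06g0289900, line 13 was the highest and line 19 the lowest of the lines in those shared leaf libraries. Os03g0289800, also similar to leucoanthocyanidin dioxygenase, rose from 2.71 RPM in NT leaves to 12.0, 13.9 and 12.1 RPM. In leaves 8 of this list passed without the leaf library of line 13 (7 of them lower) and 1 without the root library of any 1 line.

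Genes that carry the family's InterPro entry but fall outside the rule gave no call. Of 18 tested, 0 passed in roots, in leaves or for the difference (limma). An unadjusted p under 0.05 was found for 2, 5 and 4 of them, beside 2959, 4615 and 3338 of the 21991 tested genes. Between the tissues' line effects, 2 of the 95 tested members differed (2.11%, beside 0.382% of all tested genes). On the log2(RPM + 1) scale UGT99B3 had the more negative effect in leaves (0.123% of all genes) and UGT74H4 the more positive one (0.259%). With 0.1 RPM added the difference for UGT99B3 turned to 0.60, and that for UGT74H4 no longer passed (1.34, limma adjusted p = 0.235). The call for UGT99B3 was also lost with any 1 line library left out. An unadjusted p under 0.05 was found for 17 members, beside 3338 of the 21991 tested genes.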

How the data were processed

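Per the series' design text, the deposited values are a normalized signal, reads per 1000000 (RPM); in the deposited table each class of rows (46120 genes, 10 ribosomal RNAs, 92 ERCC controls) adds up to 1000000 per library. The submitters' processing notes name the build IRGSP-1.0 and the tools RSEM 1.2.21, Bowtie 1.2.3 and Trimmomatic 0.39, without roles. The most frequent value above 0 was taken as 1 read. Of values below 20 such reads, 45.5% to 61.2% were whole within 0.1 read, so no count test was run. The deduction was estimated, in genes of 200 to 600 reads in all, as the share of a gene's total that, added back, gave the highest share of whole values (46.5% to 53.7% within 0.1 read, beside 9.47% to 12.3% as deposited and 20% by chance).

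Groups came from the sample titles. Genes averaging 1 RPM or more, 21991 in all, were tested on log2(RPM + 1) with limma 3.58.1 (lmFit, eBayes with trend; statmod 1.5.0; R 4.3.3), with 4 group means, two-sided, Benjamini-Hochberg adjusted over all genes, threshold 0.05; roots against leaves was a fit of 4 against 4. Fold changes are on that scale and understate those of low genes. The lone NT sample was assumed to vary like the lines. Tables and figures used Python 3.11.15 (pandas 2.3.3, numpy 2.4.6, matplotlib 3.10.9). Alternatives changed the pseudocount, the filter, the scaling, the deduction, the samples fitted, the replicate block and each library in turn. An NT library could not be left out of a comparison that uses it, since it is the only NT sample of its tissue.

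Root and leaf samples of a line carry the same line number in the labels, which pairs them by line; over 15860 genes, the root and leaf deviations of a line from its groups had correlations of 0.196 (line 13), -0.03 (line 15) and 0.144 (line 19).

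Members and lists were chosen with earlier results of these data known. Named members were every one past the threshold for the lines against NT or the difference, the 5 with the largest tissue difference in each direction, the 6 with the highest mean RPM in each tissue, and those with a listed acceptor. Members with an acceptor class from the annotation were added after the values were seen. Sequences, coordinates and strand were not used here, so overlap with antisense genes was not checked.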

Additional observations from a re-analysis of the deposited data

Results flagged for a closer look

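For 2 members the tested effect of the lines differed between leaves and roots. For UGT99B3 (Os10g0178500) the difference, leaves minus roots, was -1.49 (limma adjusted p = 0.0475), with falls from 27.7 RPM in NT leaves and from 3.91 RPM in NT roots to 1.24 RPM or less in every sample of the lines. With 0.1 RPM added in place of 1 RPM it was 0.60. For UGT74H4 (Os09g0518000) the difference was 1.96 (limma adjusted p = 0.0394), with a rise in leaves and root values of at most 0.156 RPM. With 0.1 RPM added it was 1.34 (adjusted p = 0.235), and it missed the threshold under 8 of 14 alternatives.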

How the results depend on the processing

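Of 14 calls of single members for the lines against NT or for the difference between tissues, 215 alternatives gave 139 results on the same side of the threshold, 75 that missed it and 1 that reversed, the difference for UGT99B3 with a pseudocount of 0.1 RPM (0.5967). The 139 include 3 root calls without NT leaves and 9 leaf calls without NT roots, which these fits could hardly change. Between the tissues, Os11g0599200 turned to -0.0225 after TMM rescaling and Os07g0503900 to -0.1019 after quantile normalization. Only 1 member passed in roots with a filter at 5 RPM. In leaves 5 passed without a filter and 0 in a fit of the leaves alone, and 3 to 10 with 1 library left out. For the difference 0 passed with a pseudocount of 0.1 RPM or a filter at 5 RPM, 1 after TMM rescaling or quantile normalization, and 0 to 1 with 1 library left out. Between tissues 41 passed with the filter at 5 RPM, where fewer genes are tested.

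Among UDP-sugar genes, 1 passed in roots without a filter, and in leaves 1 without a filter, after TMM rescaling or quantile normalization, 0 in leaves alone and 0 to 3 with 1 library left out. Among beta-glucosidases, 1 passed in roots with a pseudocount of 5 RPM and 2 without a filter, and in leaves 0 in leaves alone and 0 to 2 with 1 library left out. Among phenylpropanoid and flavonoid genes, 0 passed in roots with a pseudocount of 0.1 RPM, a filter at 5 RPM or roots alone and 4 without a filter; in leaves 1 passed with a pseudocount of 0.1 RPM or quantile normalization, 0 in leaves alone and 1 to 8 with 1 library left out. The size rule gave 5 members in roots and 10 in leaves at 1.5-fold, and 4 and 14 at a mean of 1 RPM. Except where an alternative tests fewer genes or fits fewer samples, the cause was not tested.

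With the line as a replicate block 3, 9 and 2 members passed in roots, in leaves and for the difference, and 82 between tissues (46 and 36), and no call of a named member was lost. The correlation estimated within a line was 0.00483. For the lines against NT and the difference the blocked fit was thus nearly the main fit and shows little about the pairing. With the InterPro entry as the family, an alternative added after seeing the data, 3, 9, 2 and 88 genes passed. All tested genes split 585 higher to 249 lower in leaves as deposited, 462 to 386 after TMM rescaling and 377 to 293 after quantile normalization. Values near 1 read and those within the estimated deduction cannot show a difference.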
